A study of Sus scrofa with 6 samples.

Results

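The 10 genes described here encode the cytoplasmic actins and the proteins that nucleate and turn over actin filaments in the oocyte, and they were taken by name from the 29861 genes of the deposited table. They are ACTB and ACTG1 (β- and γ-actin), FMN2, SPIRE1 and SPIRE2 (nucleators of straight filaments), ACTR2, ACTR3 and ARPC2 (subunits of the Arp2/3 complex), CFL1 (cofilin) and PFN1 (profilin). They were chosen with the values of these same samples known, so their levels and differences are given as a description. Their P-values in the model of all genes are used only for counts set beside the share of all genes, and those counts support nothing about the members. All 10 were found, and 8 passed the filter used for the model, a mean of at least 1 FPKM (a fragment count scaled by transcript length and by sequencing depth) over the 6 samples. FMN2 and SPIRE2 did not, and are given by their FPKM alone.

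RNA was sequenced from pig oocytes taken from ovaries of slaughtered animals and matured in vitro within their cumulus cells, with 2 samples in each of 3 groups. Control oocytes were matured at the normal culture temperature, heat-stressed oocytes spent the first part of maturation at a raised temperature, and NMN-supplemented oocytes had the same heat stress with nicotinamide mononucleotide, a precursor of NAD+, in the medium. No group received NMN without heat, so the effect of NMN alone was not measured. The labels give the stage as GV (germinal vesicle) at 24 h, whereas the study's methods name metaphase II, and the stage could not be settled here. Each sample was a pool of oocytes, and nothing in the labels says whether the 2 samples of a group came from separate cultures, so errors measure only the spread between these samples. The heat-stressed samples enter both the comparison with control and that with NMN, and the control samples enter both comparisons made against control.

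Actin filaments grow from a pool of monomers, and new filaments need a nucleator. Formin-2 and the Spire proteins together nucleate the loose mesh of straight filaments in the oocyte cytoplasm that moves the spindle to the cortex, and the Arp2/3 complex nucleates branched filaments beneath the cortex. Cofilin severs filaments, and profilin recharges monomers and delivers them to formins. A maturing oocyte transcribes little, so its transcript levels depend largely on stored mRNA and its polyadenylation and decay.

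The 2 actins are shown by sequence because reads of one could be assigned to the other. The first 60 coding bases, from the RefSeq annotation of Sscrofa11.1, are printed 5′ to 3′ with the bases that differ in capitals. ACTB lies at chr3:4084275-4090383 on the minus strand and the stretch shown at chr3:4089480-4089539, while ACTG1 lies at chr12:1320355-1323219 on the plus strand and its stretch at chr12:1320880-1320939.
ACTB: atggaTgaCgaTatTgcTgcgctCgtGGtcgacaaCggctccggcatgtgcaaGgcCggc
ACTG1: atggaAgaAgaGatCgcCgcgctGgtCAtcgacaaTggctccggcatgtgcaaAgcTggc
These stretches differ at 11 bases. Over the whole coding sequence of 1128 bases the 2 genes differ at 66 and are 94.1% identical, and the longest identical run is 107 bases. How the authors' quantification divided shared reads is not given in the sources used here, so the split between the 2 actins is uncertain and their sum is given as well.

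ACTB was lower in heat-stressed than in control oocytes and lower again in NMN-supplemented oocytes. Its FPKM was 2.56 and 2.81 in control oocytes, 1.101 and 0.983 under heat stress and 0.575 and 0.582 with NMN. The 3 groups did not overlap, and the NMN-supplemented samples lay below the heat-stressed ones rather than between them and the controls. The mean FPKM of heat-stressed oocytes was 0.389 of control, and that of NMN-supplemented oocytes was 0.555 of heat-stressed and 0.216 of control. On the log2(FPKM + 1) scale used for all differences below, the difference was -0.85 (SE 0.12) for heat-stressed minus control, -0.37 (SE 0.12) for NMN-supplemented minus heat-stressed and -1.22 (SE 0.12) for NMN-supplemented minus control oocytes. This scale understates the change of a gene at such low levels. RNA per oocyte and the number of oocytes behind a sample cannot be told apart in pooled material, and FPKM gives only a share of the sample's RNA.

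ACTG1, the abundant actin of these oocytes, was slightly lower in both heated groups than in control. It had 81.7 and 74.6 FPKM in control oocytes, 69.5 and 68.2 under heat stress and 65.4 and 73.0 with NMN. The control samples were the 2 highest, and the heat-stressed values lay inside the range of the NMN-supplemented ones. Its log2 differences from control were -0.18 (SE 0.12) in heat-stressed and -0.17 (SE 0.12) in NMN-supplemented oocytes. The summed FPKM of both actins was 80.9 ± 4.84 (SD, n = 2) in control, 69.9 ± 1.01 in heat-stressed and 69.8 ± 5.38 in NMN-supplemented oocytes, so ACTB made little of the sum.

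The ratio of ACTG1 to ACTB therefore moved with ACTB. It was 32.0 and 26.6 in control oocytes, 63.1 and 69.4 under heat stress and 114 and 125 with NMN, with no overlap of the groups. ACTB made 3.03 and 3.62% of the 2 actins in control oocytes, 1.56 and 1.42% under heat stress and 0.871 and 0.791% with NMN. The muscle and other actins (ACTA1, ACTA2, ACTC1, ACTG2 and ACTBL2) summed to at most 0.188 FPKM in any sample, and ACTA1, ACTG2 and ACTBL2 were listed at 0 in all 6.

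**Figure D1:**
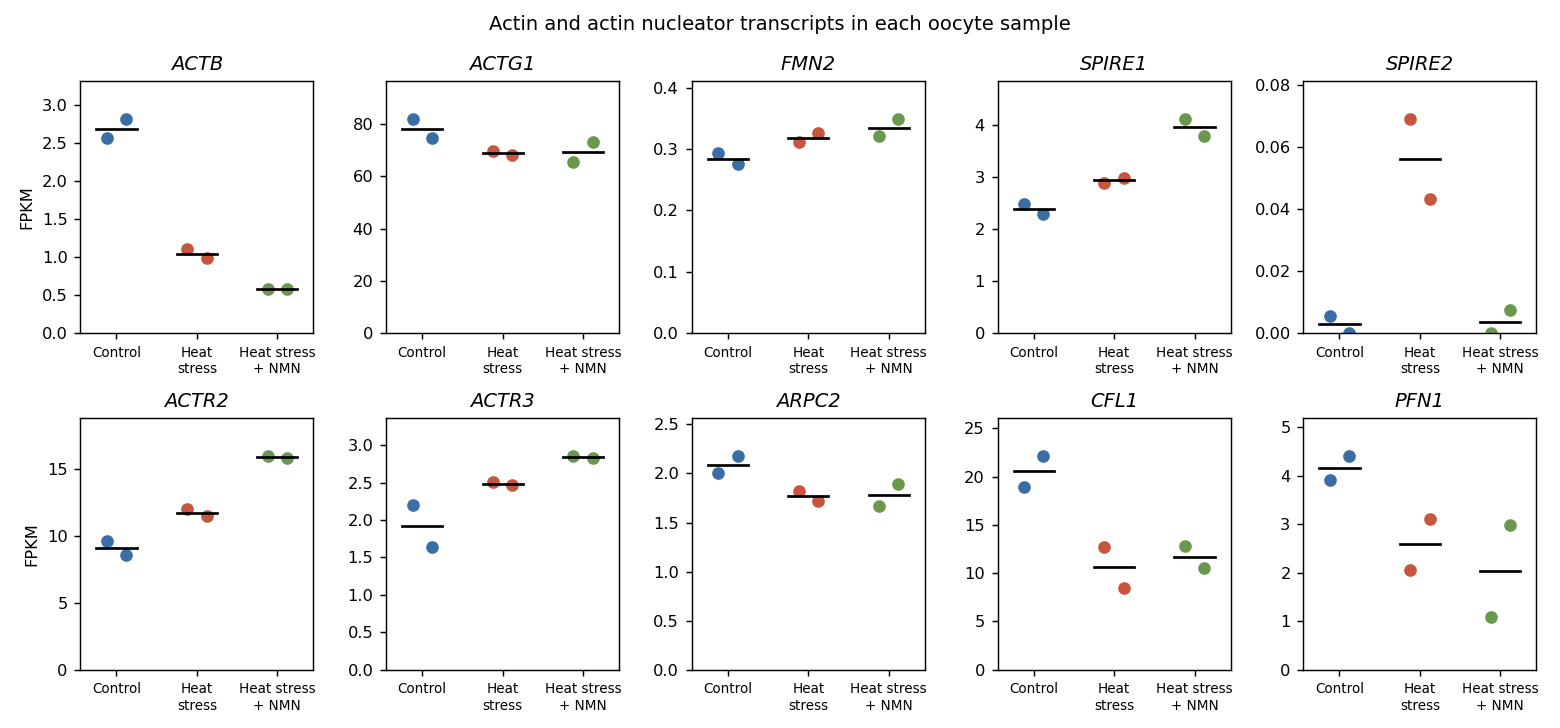
FPKM of each of the 10 genes in the 6 samples, with 1 point per sample and a line at the mean of each group (2 samples per group). ACTB steps down from 2.56 and 2.81 in control to 0.575 and 0.582 in NMN-supplemented oocytes, ACTR2 and SPIRE1 step up, and ACTG1 stays between 65.4 and 81.7.

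The promoters of the 2 actins are shown because both hold a CArG box, the element bound by SRF (serum response factor), a regulator of many actin genes. The bases upstream of each annotated gene start are printed 5′ to 3′ with the box in capitals, at chr3:4090384-4090449 on the minus strand for ACTB and at chr12:1320274-1320354 on the plus strand for ACTG1 (Sscrofa11.1, RefSeq).
ACTB: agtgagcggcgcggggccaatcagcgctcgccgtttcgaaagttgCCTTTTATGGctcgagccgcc
ACTG1: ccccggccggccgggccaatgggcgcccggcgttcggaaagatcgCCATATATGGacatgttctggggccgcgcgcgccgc
The box begins 21 bases before the start of ACTB and 36 bases before that of ACTG1. It was searched on both strands from 250 bases before to 50 after the start. No other member held one, against 305 of 20632 protein-coding promoters (1.48%). A match is a description of the letters only.

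The partners that nucleate straight filaments differed widely in level. FMN2, the formin of the oocyte's cytoplasmic mesh, was low in every sample, at 0.293 and 0.276 FPKM in control oocytes, 0.311 and 0.326 under heat stress and 0.321 and 0.348 with NMN. The control values were the 2 lowest, and the ranges of the other groups overlapped. FMN2 is annotated on an unplaced scaffold of Sscrofa11.1.

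SPIRE1, which nucleates with FMN2 and links to vesicles, was the main Spire transcript. It had 2.48 and 2.29 FPKM in control oocytes, 2.90 and 2.98 under heat stress and 4.11 and 3.801 with NMN, increasing across the groups without overlap. The log2 difference was 0.22 (SE 0.11) for heat-stressed minus control, 0.33 (SE 0.11) for NMN-supplemented minus heat-stressed and 0.55 (SE 0.11) for NMN-supplemented minus control oocytes. SPIRE2 stayed at or below 0.0689 FPKM and was listed at 0 in 1 control and 1 NMN-supplemented sample. Its listed locus is shared with LOC106509348, which had 2.44 to 3.62 FPKM, so the low values of SPIRE2 are uncertain.

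The 3′ ends of the members were also searched. Within the last 100 bases of the annotated transcript, SPIRE1 and FMN2 each held a cytoplasmic polyadenylation element. Through this element stored oocyte mRNAs gain a longer poly(A) tail. The element was searched in the transcript strand as TTTTAT or TTTTAAT and stood 56 bases from the end in FMN2 and 49 in SPIRE1. None of the other members held it, and 15.4% of 20641 genes did. For ACTR3 only coding sequence was searched, since its only mRNA model (1257 bases) has the length of its coding sequence. The annotated ends of ACTB, ACTR3 and ARPC2 also held neither AATAAA nor ATTAAA, the poly(A) signal, which 63.4% of genes held. These ends may be incomplete, so the absence of the element from these members is uncertain.

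Of the Arp2/3 subunits, ACTR2 (the Arp2 subunit) was the highest and was higher at each step from control to NMN-supplemented oocytes. It had 9.60 and 8.59 FPKM in control oocytes, 12.1 and 11.5 under heat stress and 16.0 and 15.9 with NMN. The groups did not overlap, and the NMN-supplemented mean was 1.75 of the control mean. The log2 differences were 0.34 (SE 0.11) for heat-stressed minus control, 0.41 (SE 0.11) for NMN-supplemented minus heat-stressed and 0.75 (SE 0.11) for NMN-supplemented minus control oocytes.

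ACTR3, which pairs with ACTR2 to form the seed of a branch, followed the same order at a lower level. It had 2.196 and 1.64 FPKM in control oocytes, 2.504 and 2.46 under heat stress and 2.85 and 2.83 with NMN. Its log2 difference for NMN-supplemented minus control oocytes was 0.40 (SE 0.13), and the 2 controls differed from each other by more than the heat-stressed and NMN-supplemented groups did. ARPC2, a scaffold subunit that holds the complex on the mother filament, went the other way in level, with 2.003 and 2.18 FPKM in control oocytes, 1.82 and 1.71 under heat stress and 1.67 and 1.89 with NMN. Its log2 differences from control were -0.16 (SE 0.12) in heat-stressed and -0.15 (SE 0.12) in NMN-supplemented oocytes.

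The transcripts of these subunits therefore did not keep a fixed proportion in FPKM, and the proteins were not measured. The ratio of ACTR2 to ARPC2 was 4.79 and 3.95 in control oocytes, 6.63 and 6.69 under heat stress and 9.57 and 8.39 with NMN. With the trend of transcript length across genes removed, the difference of ARPC2 for NMN-supplemented minus control oocytes was 0.01, with its sign turned. It kept its sign in 17 of 18 alternatives, among them those with length and GC trends removed. The other 7 subunit genes had a mean under 1 FPKM. ARPC1A was the highest of them, at a mean of 0.916 FPKM. ARPC4 had 0.607 and 0.655 FPKM in control oocytes, 0.408 and 0.314 under heat stress and 0.0899 and 0.0656 with NMN, and was chosen for mention after its values were seen. Its listed locus held 2 genes, so these values are less certain.

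**Figure D2:**
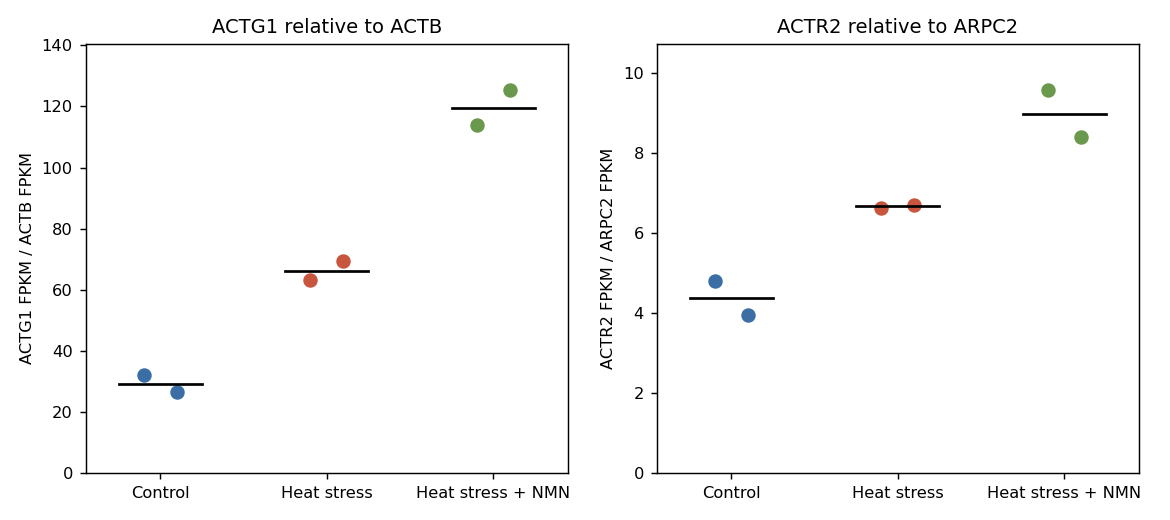
Ratio of ACTG1 to ACTB and of ACTR2 to ARPC2 in FPKM, with 1 point for each of the 6 samples and a line at each group mean. The ratio of ACTG1 to ACTB goes from between 26.6 and 32.0 in control to between 114 and 125 in NMN-supplemented oocytes, and that of ACTR2 to ARPC2 from between 3.95 and 4.79 to between 8.39 and 9.57.

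CFL1, which severs filaments, was lower in both heated groups than in control. It had 18.9 and 22.1 FPKM in control oocytes, 12.8 and 8.47 under heat stress and 12.8 and 10.6 with NMN. The controls lay above all other samples, and the heated groups overlapped. The log2 difference from control was -0.91 (SE 0.21) in heat-stressed and -0.77 (SE 0.21) in NMN-supplemented oocytes, and NMN-supplemented minus heat-stressed was 0.15 (SE 0.21). Without heat-stressed replicate 2 that last value was -0.12, so its sign rested on 1 sample. The ratio of CFL1 to its paralog CFL2 was 2.06 and 2.07 in control oocytes, 1.14 and 0.633 under heat stress and 1.11 and 0.696 with NMN. CFL1 has a pseudogene copy, LOC100623012 on chromosome 13, that is 94.4% identical over its coding sequence and had 0 to 1.75 FPKM, and its listed locus overlaps SNX32, which had at most 0.0782 FPKM. Reads of CFL1 and its copy could have been divided between them.

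PFN1 was the member with the largest SE, since its replicates lay far apart. It had 3.92 and 4.404 FPKM in control oocytes, 2.07 and 3.10 under heat stress and 1.09 and 2.98 with NMN. The controls were highest, while the range of the NMN-supplemented samples overlapped that of the heat-stressed ones. The log2 difference from control was -0.54 (SE 0.33) in heat-stressed and -0.84 (SE 0.33) in NMN-supplemented oocytes. The second value was -0.37 without NMN-supplemented replicate 1 and -1.30 without NMN-supplemented replicate 2. NMN-supplemented minus heat-stressed was -0.30 (SE 0.33) and turned to 0.17 without NMN-supplemented replicate 1.

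Ordered by mean FPKM over the 6 samples, the members ran from ACTG1 (72.1) through CFL1 (14.3), ACTR2 (12.3), SPIRE1 (3.09), PFN1 (2.93), ACTR3 (2.41), ARPC2 (1.88) and ACTB (1.43) to FMN2 (0.312) and SPIRE2 (0.0209). Over all samples, the ranges of CFL1 and ACTR2 overlapped, as did each neighbouring pair from SPIRE1 to ACTB. The gaps below ACTG1, between ACTR2 and SPIRE1, between ACTB and FMN2 and between FMN2 and SPIRE2 were free of overlap. ACTG1 alone made 62.4 to 68.4% of the summed FPKM of the 10 genes.

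The members were then set against all 4713 tested genes in the same limma fit. For heat-stressed minus control oocytes, 3 of the 8 members had an unadjusted P under 0.05, ACTR2 higher and ACTB and CFL1 lower. The share of all tested genes was 22.8% (12.7% higher and 10.1% lower). No tested gene, member or other, passed after Benjamini-Hochberg adjustment in this fit. For NMN-supplemented minus heat-stressed oocytes, 3 of 8 had an unadjusted P under 0.05, SPIRE1 and ACTR2 higher and ACTB lower. The share of all tested genes was 13.6% (7.15% higher and 6.45% lower), and again no tested gene passed after adjustment. For NMN-supplemented minus control oocytes, 6 of 8 had an unadjusted P under 0.05. SPIRE1, ACTR2 and ACTR3 were higher and ACTB, CFL1 and PFN1 lower, against 41.3% of all tested genes (25.6% higher and 15.7% lower). After adjustment 3 remained, ACTB lower and SPIRE1 and ACTR2 higher, against 21.5% of all genes, and none of the 3 did without control replicate 2 or without either NMN-supplemented sample. When 1 sample at a time was left out, the unadjusted P stayed under 0.05 in every fit for ACTB and CFL1 in the first comparison and for ACTB, SPIRE1 and ACTR2 in the third, and each of the other calls was lost in at least 1 fit. ACTR2 in the first comparison was lost whenever a sample other than control replicate 1 was left out (0.27 to 0.37), and ACTR3 in the third was 0.27 without control replicate 2. Because the members were chosen on these contrasts, nothing is read from these counts.

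Complete separation of the samples was common across the table. Heat stress separated 8 of 8 members from control without overlap, with 3 of them higher and 5 lower, against 54.7% of tested genes (31.6% higher and 23.2% lower). They did not overlap for 4 of 8 between NMN-supplemented and heat-stressed oocytes, 3 higher and 1 lower, against 53.5% (35.9% and 17.6%). Between NMN-supplemented and control oocytes the count was 8 of 8, 3 higher and 5 lower, against 69.9% (43.5% and 26.4%). ACTB was lower at both steps without overlap, as were 7.09% of tested genes, and SPIRE1, ACTR2 and ACTR3 were higher at both steps, as were 15.7%. The median log2 difference of all tested genes was 0.05, 0.08 and 0.11 in the 3 comparisons. The smallest P that an exact two-sided permutation test allows for 1 gene with 2 samples per group is 0.333.

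**Figure D3:**
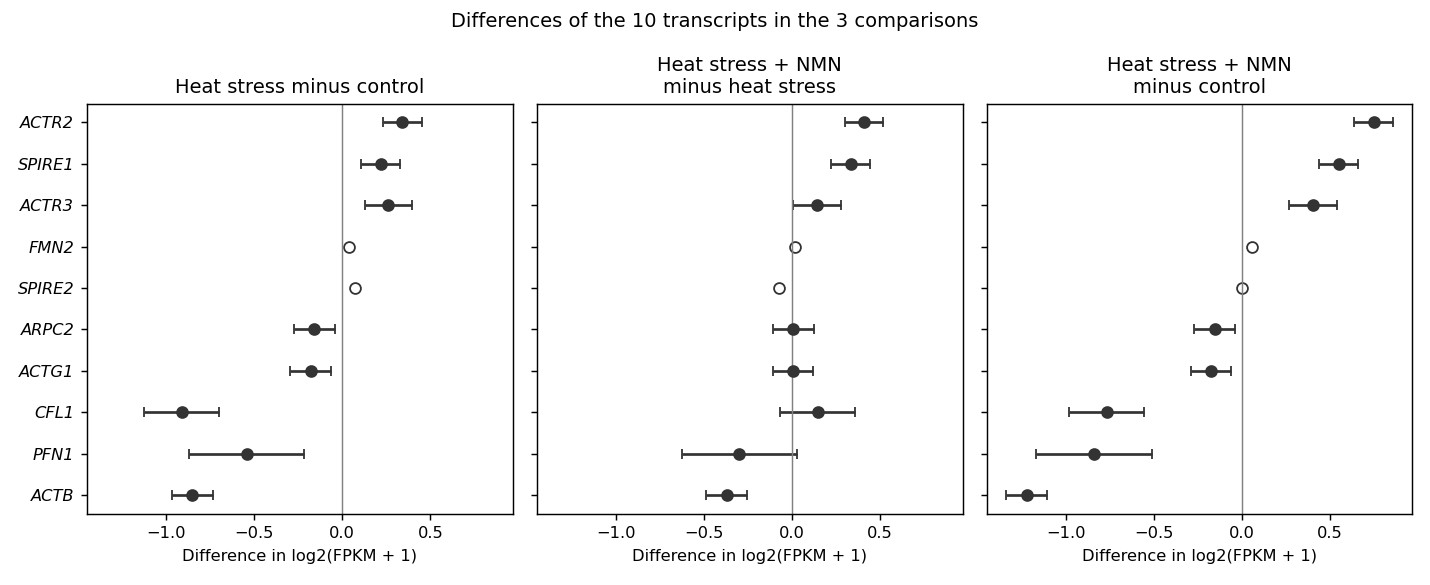
Differences in log2(FPKM + 1) of the 10 genes in the 3 comparisons between groups, where filled points with bars are the 8 tested genes with the SE of the limma fit and open points are FMN2 and SPIRE2, which were below the filter and have no SE. ACTB reaches -1.22 and ACTR2 0.75 for NMN-supplemented minus control oocytes, and ACTG1 stays within 0.18 of 0 in each comparison.

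Transcript length and GC content moved with the differences across the table, and the members differ in both. Over tested genes, Spearman's rank correlation between transcript length and the log2 difference was 0.305 for heat-stressed minus control, 0.276 for NMN-supplemented minus heat-stressed and 0.397 for NMN-supplemented minus control oocytes, and with GC content it was -0.478, -0.130 and -0.425. These are correlations across genes of the same libraries, and genes are not independent replicates. The short PFN1 (889 bases) and CFL1 (1104 bases) were lower and the long SPIRE1 (5549 bases) and ACTR2 (3847 bases) higher, and ACTB (3366 bases) was lower. For tested members that were lower, GC content was 62.6% (ACTB), 58.2% (ACTG1), 57.5% (CFL1), 55.9% (PFN1) and 47.9% (ARPC2). It was 52.6% for SPIRE1, 39.8% for ACTR2 and 37.3% for ACTR3, which were higher. ARPC2 was thus lower with a GC content below that of SPIRE1. With the trends of length and GC content removed, NMN-supplemented minus control was -1.02 for ACTB, 0.44 for ACTR2, 0.48 for SPIRE1, -0.30 for CFL1, -0.36 for PFN1 and 0.14 for ACTG1, the last with its sign turned, and ACTB alone of the members stayed under an adjusted P of 0.05. ACTR2 for heat-stressed minus control became 0.12. These lengths are of the longest annotated transcript. ACTB, SPIRE1 and ACTR2 also have shorter mRNA models, down to 1902, 2437 and 1185 bases. These were not used in any correction, so the corrected values of these genes rest on the longest model. For ACTR3 the longest transcript is a non-coding model of 10475 bases, while its only mRNA model has 1257, the length of its coding sequence. ACTR3 was -0.05 for NMN-supplemented minus control oocytes with the former and 0.44 with mRNA models used throughout, so its corrected sign rests on the model chosen. The part of length and GC content in these differences was not tested beyond this.

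Other genes of the actin system gave the setting of the members, from lists that name 164 genes (160 present in the table, 42 of them tested). For heat-stressed minus control oocytes, 12 of the 42 had an unadjusted P under 0.05 (8 higher and 4 lower), or 28.6% against 22.8% of all genes. For NMN-supplemented minus heat-stressed oocytes 5 did, all higher, or 11.9% against 13.6%. For NMN-supplemented minus control oocytes 21 did (18 higher and 3 lower), or 50% against 41.3%, and 16 passed after adjustment, 14 rising and 2 falling. The median log2 difference of the 42 genes was 0.19, 0.15 and 0.29, against 0.05, 0.08 and 0.11 over all genes. Of the 16 adjusted calls, none remained without control replicate 2 or without either NMN-supplemented sample, 2 remained without control replicate 1, 8 without either heat-stressed sample, and 1 (WASF3) with the trends of length and GC content removed (2 on mRNA models).

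Some genes that act on the Arp2/3 complex were among those that rose. Of 11 tested activators and inhibitors, 4 rose in NMN-supplemented relative to control oocytes after adjustment and none fell, against 21.5% of all tested genes that passed in either direction, and the difference between these shares was not tested. WASHC4, a subunit of the endosomal WASH complex, rose by 0.74 (SE 0.13, adjusted P = 0.0238), from 2.79 and 2.63 FPKM in control through 3.31 and 4.08 in heat-stressed to 5.09 and 5.28 in NMN-supplemented oocytes. JMY, a nucleator that also activates Arp2/3, rose by 0.69 (SE 0.13, adjusted P = 0.0280). WASF3, a WAVE protein, rose by 0.67 (SE 0.14, adjusted P = 0.0304), and GMFB, which removes branches, by 0.65 (SE 0.12, adjusted P = 0.0268).

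Genes of monomer and filament turnover went in both directions. Of 9 tested, TWF1 (twinfilin, which binds monomers) rose by 0.72 (SE 0.13, adjusted P = 0.0272) and SSH2 (a phosphatase that activates cofilin) by 0.62 (SE 0.14, adjusted P = 0.0379), whereas PDXP, another cofilin phosphatase, fell by 0.63 (SE 0.13, adjusted P = 0.0294). TMSB4X, the monomer-binding thymosin β4, was the most abundant of the listed genes, at a mean of 89.0 FPKM. PFN2 and DSTN, paralogs of PFN1 and CFL1, had higher mean FPKM than these members.

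Of 7 tested crosslinkers and cortex linkers, 4 rose in NMN-supplemented relative to control oocytes after adjustment (21.5% of all tested genes passed) and 3 did not pass, of which 2 were below 0. Those that rose were RDX (radixin, 0.69, SE 0.18, adjusted P = 0.0460), PLS3 (a plastin that bundles filaments, 0.55, SE 0.12, adjusted P = 0.0356), ANLN (anillin, of the cytokinetic ring, 0.51, SE 0.12, adjusted P = 0.0371) and VCL (vinculin, 0.48, SE 0.13, adjusted P = 0.0488, outside the naming rule). EZR, which links filaments to the membrane, was the most abundant of the list at a mean of 8.88 FPKM and had a difference of -0.23 (SE 0.11, adjusted P = 0.174). The formin FMNL2 rose by 0.44 (SE 0.11, adjusted P = 0.0481), at a mean of 1.67 FPKM that was above FMN2. PPP1R12A, the targeting subunit of myosin phosphatase, rose by 0.55 (SE 0.12, adjusted P = 0.0328) and RAB11FIP2, a Rab11 partner on vesicles, by 0.67 (SE 0.14, adjusted P = 0.0305). Of the 2 tested capping and severing genes, ADD3 had an unadjusted P under 0.05 for the same comparison and VIL1 did not, and neither passed after adjustment in limma. Among the other actin genes named as rising, the listed locus of VCL held 6 genes, that of SSH2 3 and those of JMY and PLS3 2 each. Their values are therefore less certain.

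The genes with the pattern most like FMN2 and ACTB were found among the 4713 tested genes by Pearson's correlation of log2(FPKM + 1) over the 6 samples. For FMN2 they were LOC106506835 (0.995), FNBP1L (0.994) and FAM126B (0.990), and 83 genes were above 0.95. For ACTB they were TCL1B (0.996), LOC100737817 (0.996) and TNN (0.996), and 115 were above 0.95. With 6 samples in 3 groups, such values are shared by many genes and are a description only.

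The cells were checked against their markers. Of 18 oocyte markers 16 were in the table and summed to 2900 to 3662 FPKM per sample. For NMN-supplemented minus control oocytes, 11 of the 14 tested were below 0. In the limma fit 8 of them had an unadjusted P under 0.05, all lower, against 15.7% of all genes. After adjustment 6 passed, against 21.5% of all genes in either direction. Of 23 cumulus and granulosa markers 22 were in the table and summed to 3.04 to 5.21 FPKM, with the keratins KRT8 and KRT18 listed at 0 in all samples and only KITLG tested. Cumulus marker sums were 3.04 and 3.84 FPKM in control oocytes, 3.97 and 5.21 under heat stress and 4.90 and 5.08 with NMN. Without KITLG they were 1.02 and 1.59 FPKM for control, 1.08 and 2.32 for heat-stressed and 1.55 and 1.64 for NMN-supplemented samples, which overlap, and their part in the members' differences was not tested. Mitochondrial genes made 66.4 and 61.7% of the FPKM of control oocytes, 62.4 and 71.6% under heat stress and 74.2 and 74.7% with NMN, so the NMN-supplemented samples lay above the others. The summed FPKM of nuclear genes was 109125 in heat-stressed replicate 1 and 57865 to 62744 in the other samples. The sum was also taken without the 2 genes that held over 5% of it in any sample. Relative to the geometric mean of the samples, it was then 1.03 in heat-stressed replicate 1 and 0.961 to 1.03 in the others. The excess of that replicate therefore lay in those 2 genes. With scaling to the nuclear sum without the 2 genes that held over 5% of it in any sample, NMN-supplemented minus control was -1.22 for ACTB, 0.74 for ACTR2 and 0.55 for SPIRE1. Across samples, 15707 to 17163 genes were above 0. The deposited values give no absolute depth, but the smallest values put the relative depth of the samples between 0.733 and 1.16 of control replicate 1.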

How the data were processed

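RNA-seq covered 3 groups of pig oocytes (control, heat-stressed, NMN-supplemented), each with 2 samples assigned by their labels. The authors deposited FPKM per gene and sample, a unit relative to transcript length and mapped fragments. The submitters' processing notes name Cufflinks 2.2.1, Cuffnorm and Cuffdiff, and the reads had been trimmed and aligned to the pig genome before. The deposited table also holds 9 columns of the authors' own fold changes, p-values and q-values, which were not used. Read counts were not used here, so absolute depth is unknown and counting intervals are left out. Genes with a mean of at least 1 FPKM (4713 of 29861) were fitted as log2(FPKM + 1) in one limma 3.58.1 model (R 4.3.3) of the 3 groups and all 6 samples, with a variance trend and Benjamini-Hochberg adjustment. The fit was tested on simulated data. Other steps ran in Python 3.11.15 (matplotlib 3.10.9, scipy 1.17.1, pandas 2.3.3). The file's loci and the RefSeq annotation are both of Sscrofa11.1. Members and lists were chosen with earlier results of these data known. Named were all members and, from each other list, up to 2 genes with the smallest unadjusted P under 0.05 in each comparison and the gene of highest mean FPKM. For FMN2 and ACTB the 3 best correlated genes were named. The genes of 1 list are counted in the totals but not reported here. Alternatives were another pseudocount, other filters, other scalings, a fit of the compared groups alone, a replicate block, no variance trend, each sample left out, the 2 actins summed and, chosen after seeing the data, trends of length and of length with GC content removed (the latter also on mRNA models).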

Additional observations from a re-analysis of the deposited data

How the results depend on the processing

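The number of genes that limma called at an unadjusted P under 0.05 depended on the filter. With a minimum mean of 0.1 FPKM, no filter or a minimum of 5 FPKM, all-gene counts were 1865, 2388 and 468 for heat-stressed minus control (1074 reported), 1161, 1557 and 266 for NMN-supplemented minus heat-stressed (641 reported), and 3236, 3700 and 791 for NMN-supplemented minus control oocytes (1948 reported). These filters left 11651, 20552 and 1672 genes tested, against 4713 reported, so the share of all tested genes called was smaller with a looser filter. Other actin genes called were 22 with no filter and 3 with the minimum of 5 for heat-stressed minus control, 12, 12 and 1 for NMN-supplemented minus heat-stressed, and 36, 42 and 4 for NMN-supplemented minus control oocytes. The other actin genes tested were 101, 152 and 11 with these filters, against 42 reported. With length and GC trends removed, an alternative chosen after seeing the data, they were 4, 2 and 13, and ACTR3 reversed for NMN-supplemented minus control to -0.0487. On mRNA models, likewise chosen after seeing the data, they were 4, 2 and 12 and ACTR3 was 0.44, so its sign rests on the model chosen. The reversal came with the non-coding model of ACTR3 (10475 bases). Its mRNA model has only the 1257 bases of its coding sequence, so neither corrected value of ACTR3 is relied on. Leaving out each sample gave 648 to 1015, 327 to 701 and 1233 to 1941 genes, and 6 to 9, 0 to 4 and 16 to 21 other actin genes. The 1015 genes called after adjustment for NMN-supplemented minus control oocytes became 373 without control replicate 1, 0 without control replicate 2 (1370 at an unadjusted P under 0.05), 1 without either NMN-supplemented sample, 86 with the minimum of 0.1 FPKM and 0 with no filter. ACTB, SPIRE1 and ACTR2 kept the sign of that difference under each alternative in which they were tested, but none of them passed after adjustment without control replicate 2, without either NMN-supplemented sample or with no filter. SPIRE1 also failed to pass without control replicate 1 and with the length trend removed, ACTB alone passed with the minimum of 0.1 FPKM and with length and GC trends removed, and CFL1 passed as well with quantile normalization, nuclear-sum scaling, the minimum of 5 FPKM, the compared groups alone and without either heat-stressed sample. For NMN-supplemented minus heat-stressed oocytes, the split of higher to lower genes was 337 to 304, but 218 to 310 with quantile normalization and 224 to 327 with scaling to the nuclear sum (less the 2 genes over 5% of it). Same-numbered samples did not deviate together (correlations -0.03, -0.01 and 0.01). No large shared deviation was therefore seen, but this cannot show whether they were collected or cultured in pairs. With the replicate block, 937, 527 and 1815 genes and 10, 5 and 22 other actin genes were called (445 and 4 after adjustment for NMN-supplemented minus control oocytes), and SPIRE1 no longer passed after adjustment. With 2 samples per group the precision is set by their number, and differences smaller than the spread between them could not be seen.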
